A study of Mus musculus with 3 samples.

Results

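The genes described here are 4 annexins (Anxa1, Anxa2, Anxa3 and Anxa5) and 5 S100 genes (S100a4, S100a6, S100a10, S100a11 and S100a1). They are 9 of the 32285 genes counted and were chosen by symbol, with earlier results of these data known. Contrasts of these genes with all genes can therefore be partly built in. Spatial transcriptome sections (Visium) of the mouse heart were compared, with 1 section for each of 3 conditions. All mice were C57BL/6, supplied at 8 weeks of age and without a stated genetic change, and all were gavaged for 7 days before the operation. Sham mice received vehicle and a needle pass with no ligation, I/R mice received vehicle, 30 min of ligation of the left anterior descending artery and 24 h of reperfusion, and SBP mice received Shexiang Baoxin Pill (MUSKARDIA), a traditional Chinese medicine compound, in place of vehicle with the same ligation and reperfusion. How many mice stood behind a section was not given in the sources used here, and no condition had a second section, so no p-value is given and every interval below covers counting error only.

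A Visium spot is a small disc of tissue that can hold several cells of different types, and spots of 1 section share a library, so they are not replicates. A minimum of 200 detected genes removed 3 sham spots, 1 I/R spot and 2 SBP spots, so that the sections held 2234 (sham), 2082 (I/R) and 1960 (SBP) spots and 21631280 to 30238530 UMIs (unique transcript molecules counted). The median spot was deeper in I/R (14672 UMIs) than in sham (10645) and SBP (10652), and transcripts of the mitochondrial genome took 44.3% to 48.6% of the UMIs. Levels are given as CPM, the UMIs of a gene scaled to 1000000 UMIs of the same spots. The 6 cardiomyocyte markers were all present in each section at a summed 19765 to 25864 CPM. Of 6276 spots kept, 1091 barcodes occur in all 3 sections, since Visium slides reuse one set of barcodes.

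Annexins are proteins that bind phospholipids when calcium rises, so that they gather at the inner face of a strained or torn plasma membrane, where they take part in sealing it, in exocytosis and in anchoring actin. S100 proteins are small calcium sensors of the EF-hand family that bind partner proteins, annexins among them. S100a10 holds Anxa2 in a complex that also recruits plasminogen to the cell surface, S100a11 binds Anxa1, S100a6 binds Anxa2 and Cacybp, and S100a4 binds non-muscle myosin. S100a1 is the S100 protein of the cardiomyocyte, where it acts on the ryanodine receptor, the sarcoplasmic reticulum calcium pump and titin.

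Positions are those of GENCODE M21 on the mouse genome GRCm38. Anxa1 lies on chromosome 19, Anxa2 on chromosome 9 and Anxa3 on chromosome 5. Anxa5 lies on chromosome 3 apart from the S100 genes, which share that chromosome in a pair of stretches: S100a1, S100a4 and S100a6 between 90511034 and 90624181, and S100a11 and S100a10 between 93520488 and 93564643. Exons of S100a4 share 302 bases with Gm42674 on the same strand, which is not a feature of the count files, and the same holds for 112 bases of Anxa3 and Gm42603. Exons of Anxa2 share 98 bases with the antisense gene Gm16144, which had 0 UMIs in every section. S100a11 has a processed pseudogene, S100a11-ps, on chromosome 12, so reads shared between those copies are uncertain.

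The region before the start of 7 of the 9 genes was found in the RefSeq promoter table (GRCm38.p6), without Anxa3 and S100a10. In the 250 bases before the start, the AP-1 motif TGANTCA, the site of Fos and Jun proteins, was found in Anxa2 and S100a11 and in 6.75% of all 32851 promoters of that length. The TEAD motif CATTCC, searched on both strands, was found in Anxa1 and in 12.6% of all promoters, and neither motif overlapped the other in these genes. The 2 promoters with an AP-1 match are shown, cut before the first annotated exon, 5′ to 3′ on the plus strand, with the match in capitals. Levels of all 9 genes by section are given below, and whether a match bears on them was not tested. The Anxa2 run is chr9:69453433-69453619 and the S100a11 run is chr3:93520246-93520487. A match is a run of letters, and binding of any factor was not measured.
Anxa2: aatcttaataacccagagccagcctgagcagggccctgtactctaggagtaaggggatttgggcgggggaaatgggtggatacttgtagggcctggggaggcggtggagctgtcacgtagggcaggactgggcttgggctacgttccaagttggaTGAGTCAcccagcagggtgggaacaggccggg
S100a11: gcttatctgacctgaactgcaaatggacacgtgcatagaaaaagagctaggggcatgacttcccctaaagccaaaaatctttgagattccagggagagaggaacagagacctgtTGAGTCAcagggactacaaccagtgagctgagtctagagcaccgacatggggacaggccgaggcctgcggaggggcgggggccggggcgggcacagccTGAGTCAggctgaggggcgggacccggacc

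The first comparison asked how the level of each gene in CPM differed between the injured and the sham section. All 9 genes passed the minimum of 50 UMIs over a pair of sections, and a gene was called where its level differed at least 2-fold. In I/R over sham 5 of 9 genes were called higher (Anxa1, Anxa2, S100a4, S100a6 and S100a10), where 8.38% of the 12231 genes tested were. Since the 9 genes were chosen with earlier results known, their place among all genes is a description only. The 8 genes other than S100a1 all lay above the median of all genes tested, which was a log2 ratio of 0.24, and their own median was 1.04. Their summed level was 660 CPM (sham), 1432 (I/R) and 911 (SBP). Scaling the sections by TMM factors shifted every ratio by -0.23 and left 3 genes called (Anxa2, S100a4 and S100a6).

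**Figure D1:**
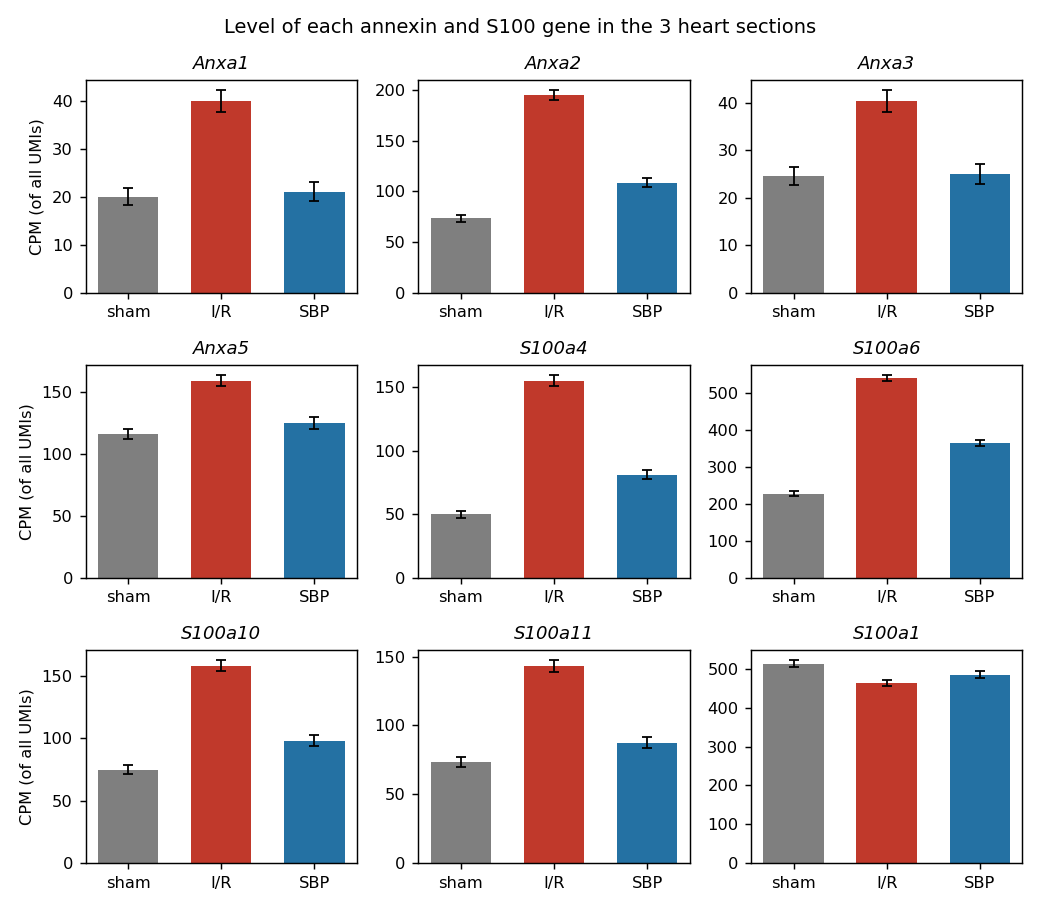
Level of each gene in CPM (vertical axis of each panel, starting at 0) in the sham, I/R and SBP sections, with exact Poisson 95% intervals that cover counting error only. For 8 genes the I/R bar is the highest, and for S100a1 it is the lowest, at 463 CPM against 514 in sham and 486 in SBP.

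Anxa2, which bridges membranes and actin, was at 73.3 CPM (sham), 195 (I/R) and 108 (SBP). S100a10, its binding partner, was at 74.8 CPM (sham), 158 (I/R) and 98.2 (SBP). Both were highest in I/R and lowest in sham, with no overlap of the counting intervals between any 2 sections. The share of all genes with intervals apart in this way was not counted, and such intervals are narrow for genes with many UMIs. In I/R over sham the log2 ratio was 1.41 (95% interval 1.34 to 1.49) for Anxa2 and 1.08 (1.004 to 1.159) for S100a10. Anxa2 ranked 479th and S100a10 856th from the highest of the 12231 genes.

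S100a4, a gene of fibroblasts and of white blood cells, was at 50.0035 CPM (sham), 155 (I/R) and 81.1 (SBP). Its log2 ratio of 1.63 (1.54 to 1.72) in I/R over sham was the highest of the 9 genes. S100a6 (calcyclin), of the same S100 gene cluster, was at 228 CPM (sham), 541 (I/R) and 365 (SBP). Its log2 ratio was 1.25 (1.203 to 1.291). Both had the same order of sections as Anxa2.

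Anxa1, known as a mediator that ends neutrophil recruitment, was at 20.0 CPM (sham), 40.05 (I/R) and 21.1 (SBP). Its log2 ratio in I/R over sham was 1.003 with an interval of 0.85 to 1.16, which lies on both sides of the 2-fold line. S100a11, its binding partner, was at 73.4 CPM (sham), 143 (I/R) and 87.4 (SBP), and its log2 ratio of 0.96 (0.88 to 1.04) lay just under the line. The counting intervals of the pair overlapped. The SBP level of Anxa1 overlapped the sham level within counting error, while that of S100a11 lay above it.

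Anxa3, a gene of neutrophils and other cells, was at 24.5 CPM (sham), 40.4 (I/R) and 24.9 (SBP). Anxa5, the protein used as a stain for dying cells because it binds exposed phosphatidylserine, was at 116 CPM (sham), 159 (I/R) and 125 (SBP). Neither was called, at log2 ratios of 0.72 (0.58 to 0.86) and 0.46 (0.39 to 0.53) in I/R over sham. Anxa5 was the least shifted of the 8 genes that were higher in I/R.

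S100a1 took the opposite order, at 514 CPM (sham), 463 (I/R) and 486 (SBP). Its log2 ratio in I/R over sham was -0.15 (-0.19 to -0.12), against a median of all genes of 0.24. It was not called in any comparison between sections.

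**Figure D2:**
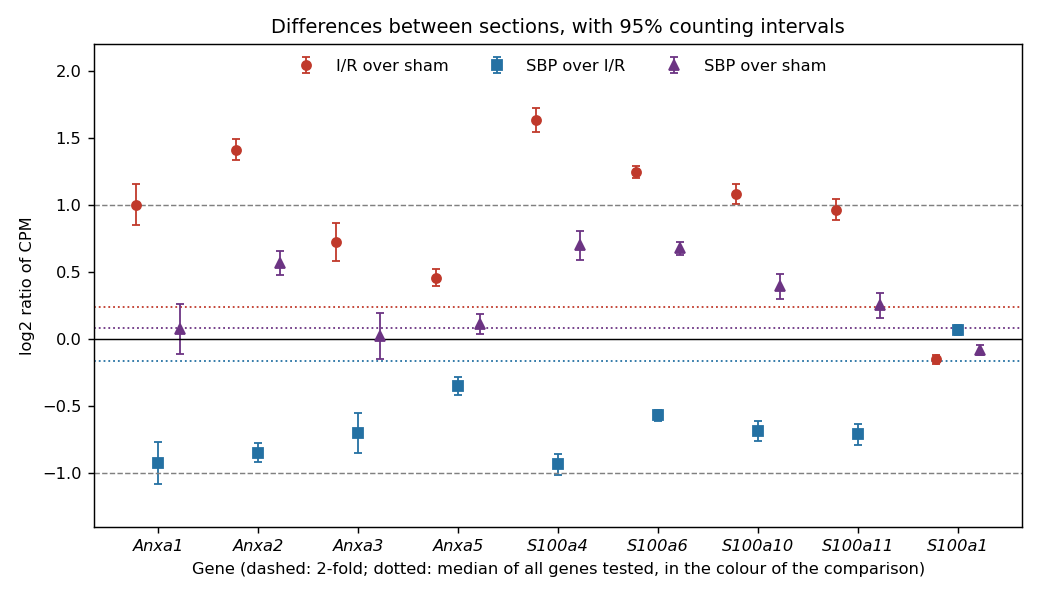
Log2 ratio of CPM (vertical axis) for each gene (horizontal axis) in I/R over sham (circles), SBP over I/R (squares) and SBP over sham (triangles), with exact conditional binomial 95% intervals. Dashed lines mark 2-fold and dotted lines the median of all genes tested, at 0.24, -0.17 and 0.08. All 8 genes other than S100a1 lie above the dotted line in I/R over sham and below it in SBP over I/R.

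Between the injured sections, 0 of 9 genes were called lower in SBP over I/R, where 4.53% of the 12151 genes tested were. The 8 genes other than S100a1 were all below the median of all genes of -0.17, with a median log2 ratio of -0.70. S100a4 was the lowest, at -0.93 (-1.01 to -0.85), and Anxa1 was close to it, at -0.93 (-1.08 to -0.77). Anxa5 was the nearest to 0, at -0.35 (-0.42 to -0.28). S100a1 was at 0.07 (0.03 to 0.11). With every spot given the same weight, 3 genes (Anxa1, Anxa2 and S100a4) passed 2-fold, at -1.04, -1.06 and -1.17. Scaling by TMM factors went the other way: it shifted every ratio by 0.16, which brought those of the 8 genes nearer to 0.

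In SBP over sham 0 of 9 genes were called higher, where 1.48% of the 11768 genes tested were. S100a4 (log2 ratio 0.70, 0.59 to 0.80), S100a6 (0.68, 0.63 to 0.73) and Anxa2 (0.57, 0.48 to 0.65) had the highest ratios, and they ranked 408th, 436th and 691st of all genes. Anxa1 (0.08) and Anxa3 (0.02) lay at or under the median of all genes of 0.08, and both intervals held 0. The 3 comparisons share their sections, so their ratios for a gene are not independent.

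Other genes of both families and of their partners were read in the same way, from lists chosen with the 9 genes. Earlier results were known for that choice too, so contrasts between the lists are a description only. Of the 8 other annexins 5 had enough UMIs in I/R and sham, and 0 of 5 were called higher (median log2 ratio 0.25). This stands beside 8.38% of the 12231 genes tested, so a count of 0 in so short a list does not set it apart. Anxa7 (0.70) and Anxa4 (0.66) were the highest of them, and Anxa11 was at -0.24. The annexins other than the 4 described above ranged from -0.37 (Anxa13) to 0.70, beside a median of all genes of 0.24.

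Of the 11 other S100 genes 5 had enough UMIs and 2 were called higher in I/R over sham, beside 8.38% of the 12231 genes tested. The 2 called were S100a8, at 10.2 CPM (sham), 108 (I/R) and 51.8 (SBP), and S100a9, at 12.0, 99.8 and 54.3 CPM. Their products form the calprotectin complex of neutrophils, and both genes also stand in the neutrophil marker list. In SBP over I/R 4 of the other S100 genes had enough UMIs and 1 of them, S100a8, was called lower, at -1.06 (-1.16 to -0.96). This stands beside 4.53% of the 12151 genes tested. In SBP over sham 2 of 4 were called higher, beside 1.48% of the 11768 genes tested. S100a16 was at 0.77 and S100a13 at 0.22 in I/R over sham, and neither was called.

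Of the 15 partners and receptors 9 had enough UMIs and 3 were called higher in I/R over sham, beside 8.38% of the 12231 genes tested. Plaur and Tlr4 were 2 of these 3, and the other is not reported here. Plaur, the urokinase receptor, was at 3.18 CPM (sham), 11.8 (I/R) and 5.55 (SBP), with a log2 ratio of 1.89 (1.54 to 2.26). Tlr4, a receptor for S100a8 and S100a9, was at 3.22, 8.003 and 4.11 CPM, with a log2 ratio of 1.31 (0.94 to 1.69). In SBP over I/R 2 of 10 with enough UMIs were called lower, beside 4.53% of the 12151 genes tested. Plaur was 1 of the 2, at -1.09, and Tlr4, at -0.96, was not called. The genes for Ahnak, a large partner of the Anxa2 complex (0.26), for Myh9, the myosin partner of S100a4 (0.55), and for Cacybp (0.33) were not called.

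Of 10 membrane repair genes 2 were called higher in I/R over sham, Myof (1.09, 0.84 to 1.36) and Capn2 (1.01, 0.88 to 1.14), with a list median of 0.59, beside the 8.38% of all genes called. With the TMM shift of -0.23 both fall under 2-fold, leaving 0 of 10. Dysf, which meets annexins at membrane wounds, was at 0.16, and Trim72 at 0.72 on 87 and 44 UMIs. All 5 listed targets of S100a1 (Ryr2, Atp2a2, Pln, Ttn and Atp5a1) were lower in I/R, from -0.24 for Ryr2 to -0.46 for Atp2a2, and 0 of 5 were called. S100a1, at -0.15, was nearer to 0 than each of them. How many of all genes were lower, or called lower, in I/R was not counted. The 6 cardiomyocyte markers, Ryr2 and Pln among them, were also lower, at a summed 25864 CPM in sham and 19765 in I/R.

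Depth differed between the sections, so the share of spots with at least 1 UMI was taken after each spot was thinned to 6500 UMIs. This left 2102 sham, 1880 I/R and 1747 SBP spots and left out 132, 202 and 213 that were shallower. How many of those lay in injured tissue was not counted, so the shares cover the deeper spots only. S100a4 was seen in 19.5% of sham spots (17.8 to 21.2, exact binomial), 40.1% of I/R spots (37.8 to 42.3) and 27.4% of SBP spots (25.3 to 29.5). Anxa2 was seen in 29.3%, 51.1% and 38.1%, and S100a10 in 32.4%, 50.9% and 40.01%. These 3 genes were found in more spots of the injured sections at equal depth, and in more spots of I/R than of SBP. Without thinning the shares were 27.7%, 58.3% and 39.2% for S100a4, 42.9%, 73.2% and 51.5% for Anxa2 and 47.8%, 72.6% and 55.4% for S100a10.

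S100a6 was seen at equal depth in 63.0%, 78.1% and 72.7% of sham, I/R and SBP spots, and S100a11 in 32.2%, 46.0% and 36.5%. Anxa1 was seen in 10.4%, 19.1% and 10.9%, Anxa3 in 14.3%, 20.5% and 12.6%, and Anxa5 in 49.0%, 57.4% and 49.2%. For these 3 annexins the sham and SBP intervals overlapped. S100a1 was seen in nearly every spot, in 95.4%, 90.7% and 95.8%, so the I/R section had more spots without it. Unthinned, these shares were 16.2% (sham), 34.4% (I/R) and 17.6% (SBP) for Anxa1 and 98.6%, 94.3% and 96.7% for S100a1.

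The share of a gene's UMIs held by its richest spots differed between the genes. The 5% of thinned spots with most UMIs held 48.4% of the S100a4 UMIs of the sham section, 37.7% (I/R) and 42.4% (SBP). For Anxa1 they held 55.9%, 45.7% and 53.2%. For S100a1 they held 11.9%, 13.1% and 12.2%. This share rises for a gene with few UMIs, whatever its spread over the tissue. In the whole sham section Anxa1 had 502 UMIs, S100a4 1256 and S100a1 12918. The shares therefore do not rank the genes, or the sections, by how gathered they were.

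The second comparison asked whether the genes were higher where tissue was injured. The study used Ankrd1, a stretch-responsive gene of cardiomyocytes, to mark the infarct area, and a spot was taken as Ankrd1-high where it lay above the sham 95th percentile of 27.0 Ankrd1 UMIs per 10000 UMIs. This held for 112 sham spots (5.01%, by construction), 479 I/R spots (23.0%) and 326 SBP spots (16.6%). Because Ankrd1 belongs to cardiomyocytes, which injured tissue may lack, spots were also classed by a list of 12 genes of matrix and repair with no annexin or S100 gene in it, Timp1, Spp1, Fn1, Tnc and Postn among them. This list was chosen with earlier results of these data known, and 10 of its 12 genes were called higher in I/R over sham. Higher levels of other genes raised in I/R in spots high in the list are therefore partly built in and are a description only. Above the sham 95th percentile of that list (11.8 UMIs per 10000) lay 112 sham, 800 I/R (38.4%) and 344 SBP spots (17.6%).

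In Ankrd1-high over other spots of the I/R section, 0 of 9 genes were called higher, where 2.13% of all genes tested were. Anxa2 had the highest log2 ratio there, at 0.80 (0.72 to 0.88), with 283 CPM in Ankrd1-high spots and 162 in the others. S100a4 had 194 and 140 CPM, at 0.47 (0.38 to 0.56), and S100a1 had 399 and 487 CPM, at -0.29. The median of the 8 genes other than S100a1 was 0.57, against 0.24 over all genes.

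The same split of the other sections gave 5 of 9 genes called in sham (Anxa1, Anxa2, S100a4, S100a6 and S100a11), where 8.96% of all genes tested were called. In SBP it gave 1 of 9, where 2.94% were. In sham S100a4 was at 136 CPM in Ankrd1-high spots and 43.2 in the others, at a log2 ratio of 1.66 (1.45 to 1.86). The 1 gene called in SBP was Anxa2, at 193 and 89.8 CPM and 1.10 (0.97 to 1.23). The ratios of these splits were not compared between sections by a test.

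The list of injury genes split them more widely. In injury-list-high over other spots, 8 of 9 genes were called higher in each of the 3 sections, where 32.3% (sham), 41.1% (I/R) and 20.7% (SBP) of all genes tested were called. Since so many genes passed, the rank says more than the call. S100a4 ranked 112th of 10642 genes in sham, 244th of 11408 in I/R and 123rd of 10469 in SBP, at log2 ratios of 3.15, 3.12 and 2.67, where the median gene was at 0.66, 0.84 and 0.52. Anxa2 ranked 178th, 521st and 296th, at 2.82, 2.59 and 2.09. Anxa5 was the lowest of the 8 in each section, at 1.54, 1.45 and 1.18. S100a1 was lower in injury-list-high spots, at -0.44, -0.77 and -0.38, and ranked 10875th of 11408 genes in I/R.

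Spots were then put in 4 classes, high in neither, in Ankrd1 only, in both or in the injury list only. In I/R they numbered 1148, 134, 345 and 455, in SBP 1430, 186, 140 and 204, and in sham 2042, 80, 32 and 80. Depth and makeup differed with the class: in I/R the median spot had 15002 UMIs and 50.9% mitochondrial UMIs in the class high in neither, and 8484 UMIs and 25.7% in the class high in the injury list only. Their part in the ratios between classes was not tested.

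In spots high in neither, the 9 genes were close across the sections. S100a4 was at 31.2 CPM in the sham section (29.0 to 33.6), 34.2 in I/R (31.5 to 37.0) and 37.9 for SBP (35.0 to 41.1). Anxa2 was at 51.2, 61.3 and 61.6 CPM, S100a10 at 66.1, 69.0 and 72.7, and S100a1 at 527, 545 and 510. In this class 0 of 9 genes were called in I/R over sham, where 0.337% of all genes tested were, and 0 of 9 in SBP over sham, where 0.498% were. With so few of all genes called, these counts do not set the 9 genes apart. The highest log2 ratios were those of Anxa2 in I/R over sham, at 0.26 (0.14 to 0.38), and of S100a6 in SBP over sham, at 0.37 (0.31 to 0.43).

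In spots high in the injury list only, the I/R section held the highest levels of the 8 genes. S100a4 was at 351 CPM in the sham section (313 to 392.5), 548 in I/R (526 to 570) and 366 for SBP (338 to 395). S100a10 was at 230.1, 396 and 248 CPM, S100a6 at 895, 1408 and 1079.5, and Anxa2 at 416, 550.1 and 350.0. S100a11 was at 294, 384 and 256 CPM, and Anxa3 at 73.6, 109.6 and 60.1. For all of these genes the I/R interval lay above those of the other sections. How many of all genes were separated in this way was not counted. The median log2 ratio of all genes in the class was 0.22 in I/R over sham. Anxa1, at 106 CPM in sham and 110.3 in I/R, and Anxa5, at 343 and 346, overlapped between sham and I/R. S100a1 was at its lowest here, at 381 CPM (sham), 263 (I/R) and 361 (SBP). Where both scores were high, S100a4 was at 240 CPM (sham), 234 (I/R) and 193 (SBP), and Anxa2 at 340, 341 and 260. For both genes, and for Anxa1, Anxa3, Anxa5 and S100a11, the sham and I/R intervals overlapped there. Only S100a6 (703 and 889 CPM) and S100a10 (170 and 267) lay higher in I/R than in sham beyond counting error.

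The 455 I/R spots high in the injury list only were 21.9% of the section. This class held 53.3% of all S100a4 UMIs of the section, 42.6% of Anxa2, 32.8% of Anxa5 and 8.6% of S100a1. Its spots were shallow, with 4561281 of the 30238530 UMIs of the section, so its share of all UMIs was below its share of spots. In the SBP section the class was 10.4% of spots and held 36.1% of S100a4 and 25.8% of Anxa2. The class high in neither was 55.1% of I/R spots and held 12.8% of S100a4 and 68.1% of S100a1.

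**Figure D3:**
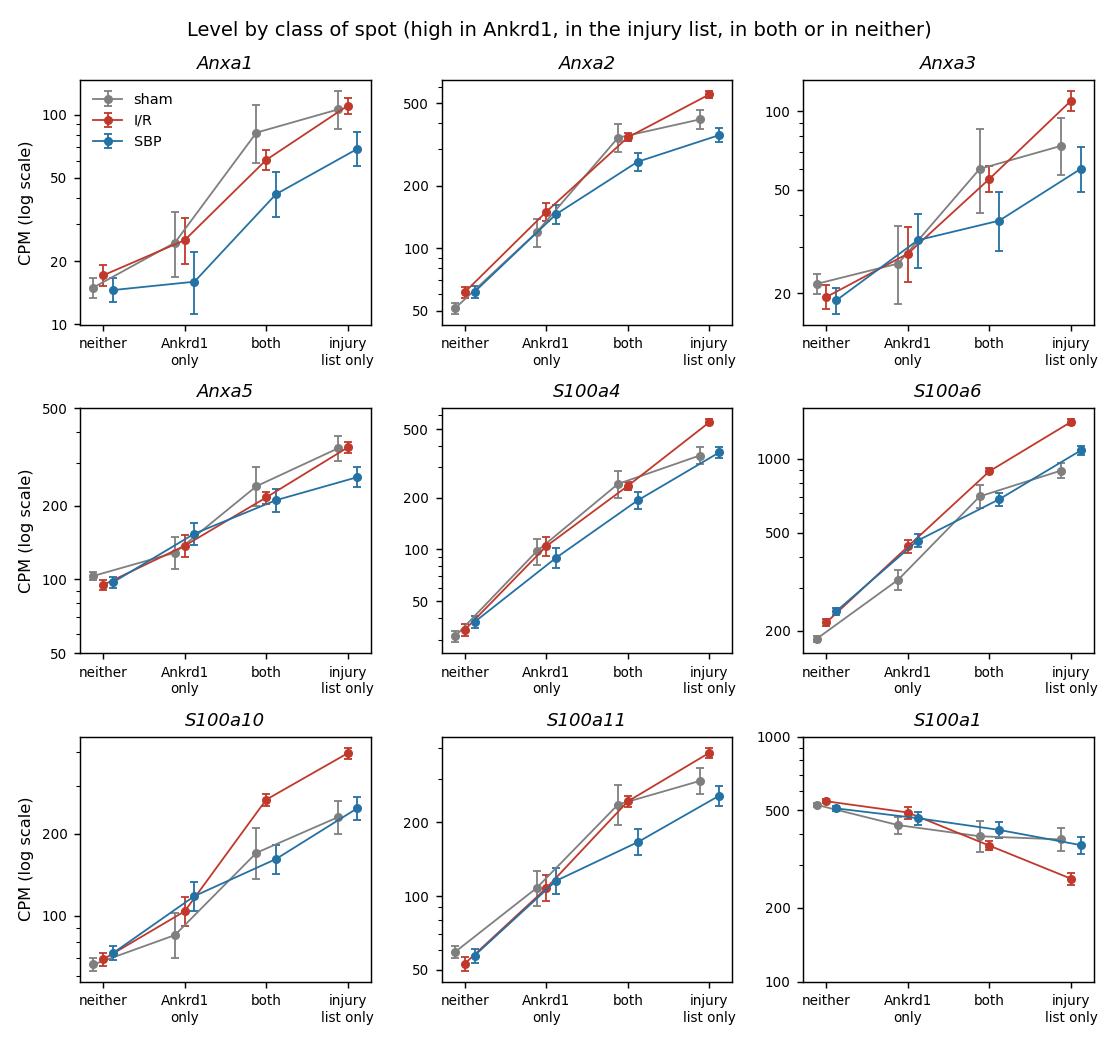
Level of each gene in CPM (vertical axis, log scale, each panel with its own range) in spots high in neither, in Ankrd1 only, in both or in the injury list only (horizontal axis), for sham (grey), I/R (red) and SBP (blue), with exact Poisson 95% intervals. The points of the 3 sections lie close in spots high in neither, and 8 genes climb toward spots high in the injury list only, where S100a4 is at 548 CPM in I/R, while S100a1 goes down to 263.

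Within that class the 8 genes were compared between SBP and I/R without matching the injury score, which was higher in I/R: all injury-list-high spots together had a list level of 4681 CPM in I/R and 3116 in SBP. The part of that score in the ratios was not tested. In SBP over I/R the log2 ratios were -0.58 (-0.71 to -0.46) for S100a4, -0.65 (-0.78 to -0.52) for Anxa2, -0.67 (-0.83 to -0.52) for S100a10 and -0.87 (-1.19 to -0.56) for Anxa3. The median of all genes in the class was -0.28, and S100a1 was at 0.46 (0.31 to 0.60). In spots high in neither the same ratios were 0.15, 0.01, 0.08 and -0.04, with intervals that held 0.

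Cutting the spots at the sham quartiles and 95th percentile of each score set the sections side by side in bins with the same limits. The top bin has no upper limit, and in that of the injury list the median spot had 43.5 list UMIs per 10000 in I/R, 24.3 in sham and 24.0 in SBP, so injury scores were not equal there. Along Ankrd1, S100a4 in I/R lay above sham in every bin, at 38.1 against 21.8 CPM in the lowest and 237 against 98.4 CPM in the bin just under the 95th percentile. It was not highest in the top Ankrd1 bin of I/R, where it was at 194 CPM. Along the injury list, S100a4 lay together in the 3 sections up to the 95th percentile, at 16.1 to 20.6 CPM in the lowest bin and 71.6 to 78.8 CPM in the bin just under the 95th percentile. Above it S100a4 was at 310.5 CPM (sham), 374 (I/R) and 282 (SBP).

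S100a10 along Ankrd1 was at 204 CPM in I/R and 99.3 in sham in the bin just under the 95th percentile, and at 217 and 108 CPM in the top bin. Along the injury list it was at 89.95, 87.3 and 105.5 CPM in sham, I/R and SBP in the bin just under, and at 208, 324 and 207 CPM in the top bin. Anxa2 in that top bin was at 389, 434 and 307 CPM, with SBP the lowest. In the bin just under, Anxa2 was at 92.4, 105 and 118 CPM and S100a6 at 310, 367 and 413, with SBP the highest for both. S100a1 was flat over the lower bins, at 512 to 565 CPM in the third, and was at 385, 316 and 388 CPM in the top bin.

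**Figure D4:**
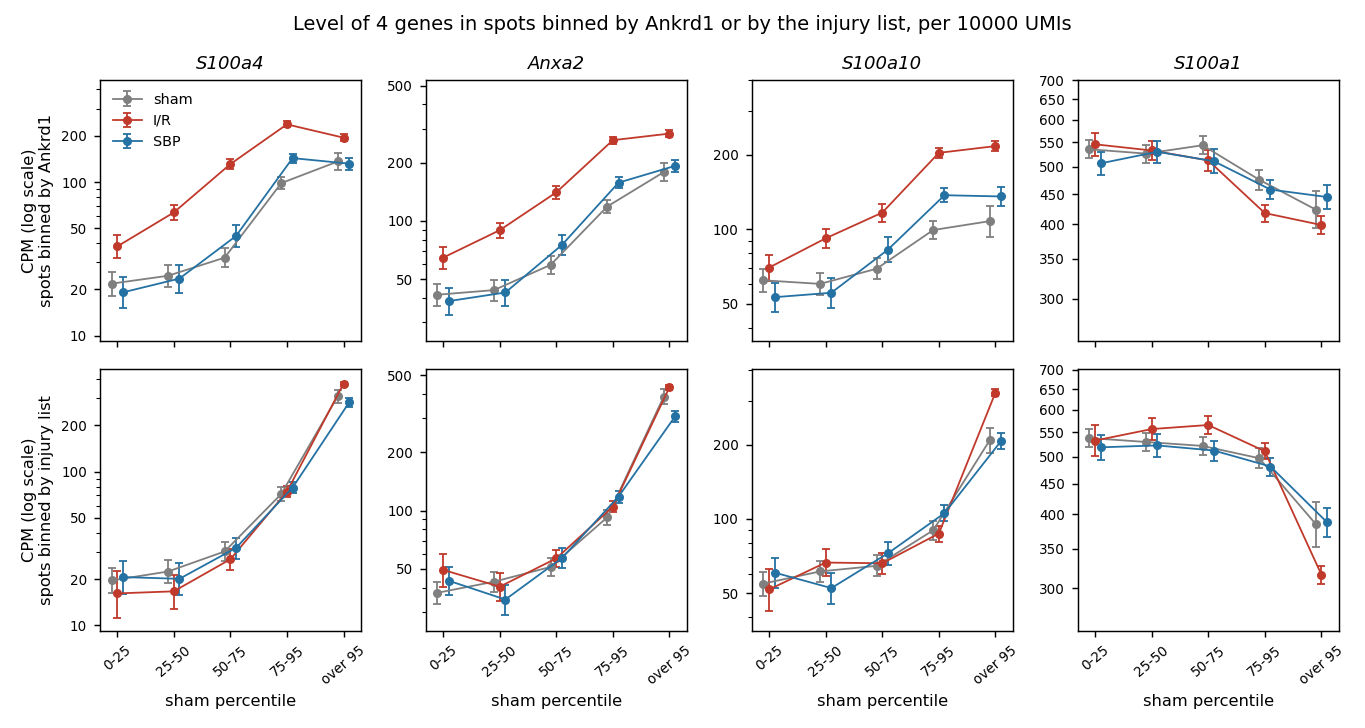
Level in CPM (vertical axis, log scale) of S100a4, Anxa2, S100a10 and S100a1 in spots binned at sham percentiles (horizontal axis) of Ankrd1 (upper row) or of the injury list (lower row), for sham (grey), I/R (red) and SBP (blue), with exact Poisson 95% intervals. Along Ankrd1 the I/R line of S100a4 lies above sham throughout (237 against 98.4 CPM in the fourth bin), and along the injury list the 3 lines of S100a4 run together up to the top bin.

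Markers of other cell types differed between the same classes. In I/R the 8 macrophage markers summed to 2583 CPM in injury-list-high spots and 530 in spots high in neither, the 5 neutrophil markers to 648 and 25.2 CPM, and the 6 cardiomyocyte markers to 12725 and 23935 CPM. In sham the neutrophil markers were at 234 CPM in injury-list-high spots, with Retnlg at 0, and the macrophage markers at 2537 CPM. In SBP these lists were at 501 and 1783 CPM. The part of these cell types in the ratios between classes and sections was not tested. A higher level per spot can come from more cells of a type or more RNA per cell, and these cannot be told apart here.

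Across the 1880 thinned I/R spots, S100a4 correlated with the summed macrophage markers at r = 0.64, with the neutrophil markers at 0.62 and with the cardiomyocyte markers at -0.70 (Pearson, log2 of 1 plus UMIs). Anxa2 gave 0.56, 0.58 and -0.66, and S100a1 gave -0.34, -0.37 and 0.44. Of the 7280 UMIs of the neutrophil list in I/R, S100a8 had 3262 and S100a9 had 3017. Its values therefore mostly reflect those S100 genes rather than all 5 markers. The fibroblast markers gave 0.02 for S100a4 and 0.17 for S100a6, and the endothelial markers 0.06 to 0.13 for the 8 genes. S100a6 had the highest value with the smooth muscle markers, at 0.33. The list of atrial markers was nearly all Nppa, a natriuretic peptide gene also made in stressed ventricles, with 34662 UMIs in I/R against 3 of Myl7, 79 of Myl4 and 0 of Sln, and it gave 0.17 (Anxa3) to 0.49 (S100a6) for the 8 genes. The epicardial, lymphocyte and blood markers stayed within -0.09 and 0.10. In sham the macrophage, neutrophil and cardiomyocyte lists gave the same signs for the 9 genes at values nearer to 0, with 0.34 for S100a4 and the macrophage markers and 0.31 for S100a6 and the fibroblast markers. Spots of a section share a library and a fixed depth, so these values describe the section and carry no test. Few UMIs of a gene also pull such a correlation toward 0, so genes and sections of unlike level are not compared evenly.

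**Figure D5:**
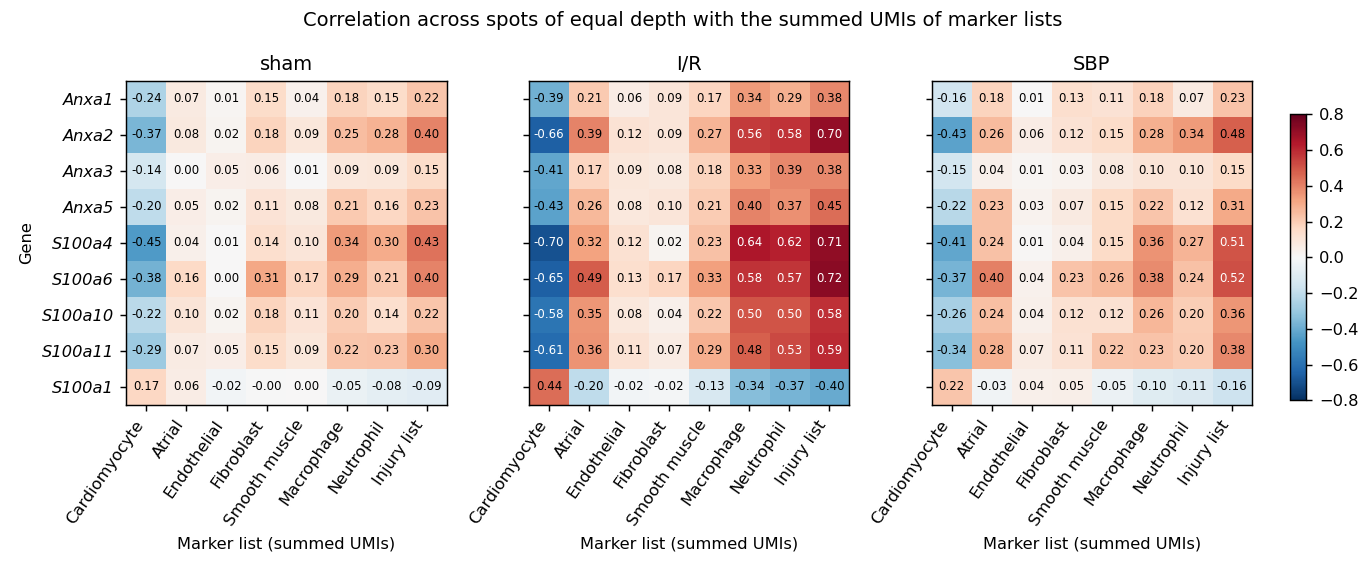
Pearson correlation (colour, red above 0 and blue below) of each gene (rows) with the summed UMIs of each marker list (columns) across thinned spots of the sham (2102), I/R (1880) and SBP (1747) sections. In I/R, 8 genes are negative with the cardiomyocyte list (down to -0.70 for S100a4) and positive with the macrophage, neutrophil and injury lists, and S100a1 is the reverse. The atrial column is nearly all Nppa, and the neutrophil column is mostly S100a8 and S100a9.

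Among themselves, S100a6 and Anxa2 were the most alike pair in I/R (r = 0.62), followed by S100a4 and S100a6 (0.61) and by Anxa2 and S100a4 (0.60). The binding partners Anxa2 and S100a10 gave 0.50 (I/R), 0.25 (SBP) and 0.19 (sham), and Anxa1 and S100a11 gave 0.29, 0.14 and 0.14. Within the 8 genes in I/R, S100a10 ranged from 0.26 (Anxa3) to 0.51 (S100a6) and S100a11 from 0.29 (Anxa3) to 0.54 (S100a4). S100a10 was therefore not most alike to Anxa2, nor S100a11 to Anxa1, while S100a6, which also binds Anxa2, was in the most alike pair. Few UMIs pull such values toward 0, so pairs of unlike level are not compared evenly. In the whole I/R section Anxa1 had 1211 UMIs and S100a6 had 16360. S100a1 was negative with all 8 others in I/R, at -0.20 to -0.35. Among the 8 genes the pairs of Anxa1 gave 0.23 to 0.36 and those of Anxa3 0.21 to 0.34.

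Of 4641 genes outside both families with at least 200 UMIs, the one most like the sum of the 8 genes in I/R was Actb, cytoskeletal actin (r = 0.79), followed by Rplp1 (0.76), Eef1a1 (0.76), Rpl41 (0.75) and Vim (0.73). Those are genes of the cytoskeleton and of protein synthesis. The genes most like S100a1 were Myh6 (0.44), Mb (0.44), Myl2 (0.43), Tnni3 (0.43) and Myl3 (0.43), all of them genes of the cardiomyocyte's contractile apparatus or, for Mb, its oxygen store. In sham the values for S100a1 were 0.13 to 0.19. Abundant genes are favoured in such a ranking. The genes most like the sum had 5685 (Vim) to 29643 (Actb) UMIs in these spots, and those most like S100a1 had 56256 (Tnni3) to 105696 (Mb).

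The 9 genes were also read in thinned spots with no UMI of any macrophage or neutrophil marker. A marker can be missed at this depth, so a count of 0 does not show that those cells were absent. Whether such spots lay away from injured tissue was not tested. After thinning there were 159 such spots (sham), 111 (I/R) and 152 (SBP). S100a4 was at 13.5 CPM in the sham section (14 UMIs), 18.0 in I/R (13 UMIs) and 17.2 for SBP (17 UMIs), and Anxa2 at 37.7, 43.0 and 49.6. All 9 intervals of the log2 ratio in I/R over sham held 0 there, and for S100a4 the interval ran from -0.80 to 1.61. How many of the 2364 genes tested in these spots had such intervals was not counted. Few UMIs make the intervals wide, so the count of 9 does not show that levels were alike. Anxa1 rested on 9 to 12 UMIs a section, and the Anxa3 interval ran from -1.55 to 0.79. A 2-fold difference in Anxa1, Anxa3 or S100a4 was therefore not detectable at this depth.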

How the data were processed

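Spatial transcriptome libraries (Visium) of 1 sham, 1 I/R and 1 SBP section were used. The study's nuclei libraries were not used here. The authors deposited raw counts of UMIs per gene and spot, made with Space Ranger (1.3.0 in the submitters' processing notes, with mm10), not normalized and limited to spots over tissue. The methods text names another version and a human reference, while the files list mouse genes. Groups came from the labels. Spots with at least 200 detected genes were kept, UMIs were summed and divided by all UMIs of the same spots (CPM), and log2 ratios of sums were given exact conditional binomial intervals at the 95% level. Levels had exact Poisson intervals, and shares exact binomial (Clopper-Pearson) ones after each spot was thinned to 6500 UMIs with a fixed seed. Called means at least 2-fold with at least 50 UMIs in the 2 sides compared. Ranks and medians cover all genes that passed that minimum. The ratio code was tested on simulated data. The genes, lists and classes of spots were chosen with earlier results of these data known, and named genes were the members of those lists and the 5 genes most alike. Values of 1 listed gene are not reported here. Alternatives were other scalings (edgeR 4.0.16 TMM, median-of-ratios), filters, thresholds and thinning depths. Python 3.11.15, numpy 2.4.6, scipy 1.17.1, pandas 2.3.3 and R 4.3.3 were used.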

Additional observations from a re-analysis of the deposited data

How the results depend on the processing

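The count of 5 genes called higher in I/R over sham became 3 without mitochondrial UMIs, with TMM factors and with median-of-ratios factors, 6 with equal weight for each spot or without the 1% of spots with most UMIs of the gene, and 7 at 1.5-fold. The count of 0 called lower in SBP over I/R became 3 with equal weight for each spot, 1 without the 1% of spots with most UMIs of the gene and 6 at 1.5-fold, and the count of 0 called higher in SBP over sham became 2 at 1.5-fold. In Ankrd1-high over other spots, the sham count of 5 became 1 at the 99th percentile, 3 without mitochondrial UMIs and 8 with the injury list. The I/R count of 0 became 8 with the injury list and 4 at 1.5-fold. The SBP count of 1 became 3 at the 90th percentile, 0 at the 99th, 2 with Ankrd1 cut after thinning, 8 with the injury list and 7 at 1.5-fold. A lower fold can only add calls, and for the other settings the cause was not tested. The log2 ratio of Anxa3 in SBP over sham, 0.02 with an interval that held 0, turned to -0.04 without mitochondrial UMIs and to -0.05 with TMM and with median-of-ratios factors, and no other ratio of the 9 genes changed sign under any alternative run. No paired analysis was possible because there was only 1 section for a condition, and for the same reason leaving out a replicate was not possible. No batch was named in the labels, and section and condition cannot be told apart.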
